A study of Mus musculus with 6 samples.

Results

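The stem cell factor receptor Kit, its proximal adaptors Grb2, Sos1, Gab2 and Shc1, the phosphatase Ptpn11 that passes its signal on, and its brakes Cbl, Cblb, Ptpn6 and Sh2b3 were followed across RNA sequencing libraries of mouse blood stem and progenitor cells. These 10 genes were taken by exact symbol from 38926 symbols in the deposited table, and all 10 were found. The 6 libraries came from 3 samples labelled Drd2 Drd3 double knockout (KO) and 3 labelled wild type (WT), all C57BL/6, untreated and 8 to 12 weeks old. Cells were sorted from crushed, collagenase-digested femur and tibia as Lin- Sca1+ cKit+ (LSK), which takes in stem cells together with multipotent progenitors. Nothing in the sources used here says whether the knockout is limited to blood cells or whether each replicate was 1 animal. The p-values therefore measure the spread between these samples, which may be technical.

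Kit is a class III receptor tyrosine kinase that pairs up when it binds stem cell factor and then phosphorylates its own tail. The SH2 domains of Grb2 and Shc1 dock there, Grb2 brings the Ras exchange factor Sos1 and the scaffold Gab2, and Ptpn11 (SHP-2) binds Gab2 and favours Ras signalling. The ubiquitin ligases Cbl and Cblb mark the active receptor for uptake and breakdown, Ptpn6 (SHP-1) removes phosphates, and the adaptor Sh2b3 (LNK) restrains Kit in stem cells. Kit is also part of the sort itself, so cells with little Kit on the surface were left out whatever their genotype.

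The values are in FPKM, reads per kilobase of gene scaled by the authors to sequencing depth. Whole reads recovered from them came to 5191857 to 7068488 per library labelled KO, against 5849881 to 6144675 per library labelled WT. The targeted gene Drd2 was listed at 0 FPKM in every library. Drd3 reached 1.62, 3.08 and 3.04 FPKM in the 3 libraries labelled KO, against 0 in all 3 labelled WT. Loss of the whole Drd3 transcript in KO would give the opposite order. Values per gene do not show which part of Drd3 was read, so the labels could not be checked on it. KO and WT below are these labels, and every direction is between libraries so labelled. The Y-linked gene Ddx3y was at 0 in the libraries labelled KO replicates 1 and 3, at 15.1 FPKM in KO replicate 2 and at 12.5 to 13.9 FPKM in the WT libraries, so the groups were not balanced for Y-linked transcripts. The same 2 KO libraries held 3182 and 1173 FPKM of the immunoglobulin chain Igkc, against 1.98 to 2.48 FPKM in the WT libraries. The gate was visible in both groups: Ly6a, which encodes Sca1, was at 114 to 161 FPKM in the KO libraries and at 110 to 129 FPKM in the WT libraries.

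The question was whether the first steps of Kit signalling were transcribed differently in LSK cells when Drd2 and Drd3, genes of dopamine receptors, were targeted. All 10 genes had a mean of at least 1 FPKM over the 6 libraries and were tested with 11371 genes in all, in limma on log2(FPKM + 1) with Benjamini-Hochberg adjustment. Cbl alone passed at an adjusted p under 0.05, lower in the libraries labelled KO. That is 1 of 10, where 10.9% of all genes tested passed in either direction, 5.48% higher in KO and 5.43% lower in KO. At an unadjusted p under 0.05 the count was also 1, against 3128 of the 11371 genes. All KO values lay to one side of all WT values for Cbl and Sos1, both lower, against 32.8% of all genes tested in either direction and 16.6% lower. Fold changes were below 0 for 8 of the 10 genes, against 50.3% of all genes, and their median was -0.24 on the log2 scale, against -0.002 for all genes.

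**Figure D1:**
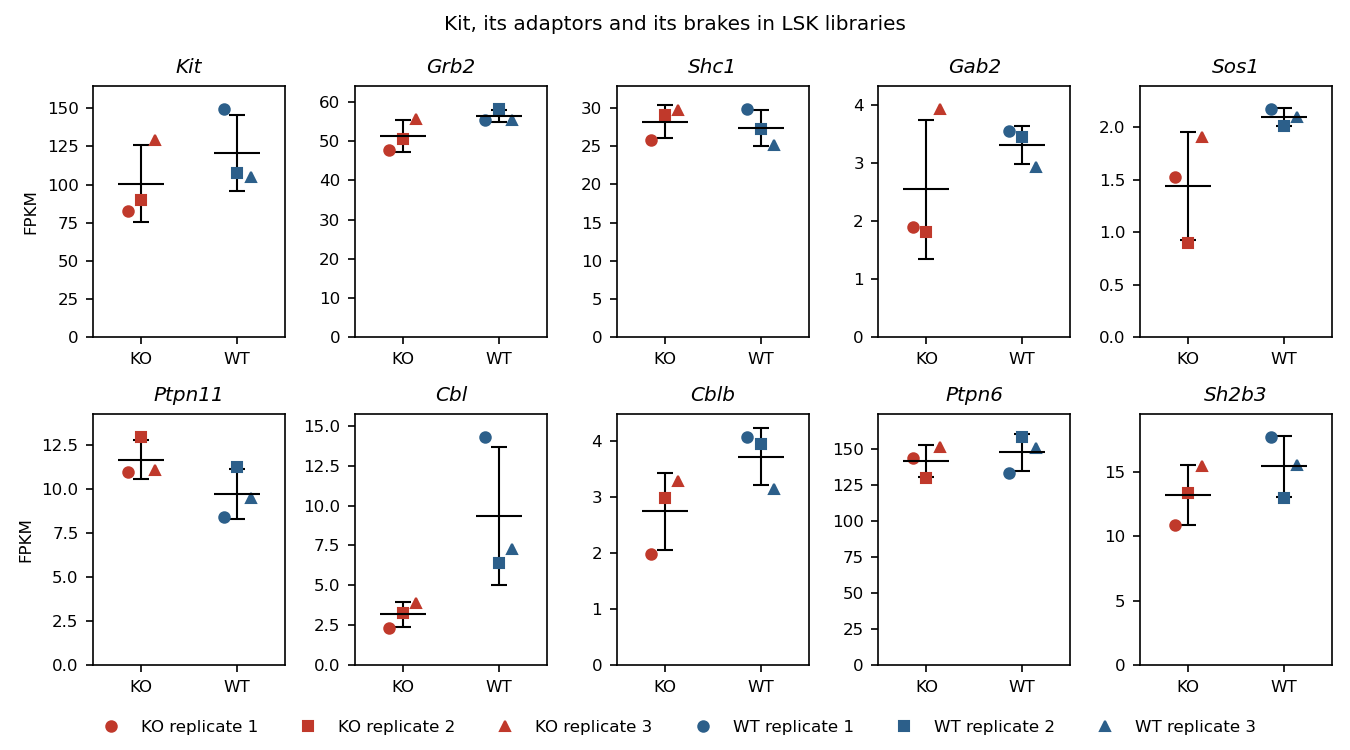
FPKM (vertical axes, from 0) of each gene in the 3 libraries labelled KO (red) and the 3 labelled WT (blue), with the replicate number as the marker and the mean and SD in black. The values of Cbl lie between 2.34 and 3.88 FPKM in KO and between 6.38 and 14.3 FPKM in WT, while in 8 of the other panels the groups overlap and in that of Sos1 they nearly touch.

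Kit (chromosome 5, 75574916 to 75656722, plus strand, build GRCm38, which is mm10) was among the more abundant transcripts, above 93.7% of all genes tested by its mean over the 6 libraries. It stood at 82.5, 90.0 and 129 FPKM in replicates 1 to 3 labelled KO, against 150, 107 and 105 FPKM in WT replicates 1 to 3. The highest KO library lay above 2 of the 3 WT libraries, so the groups overlapped. Their means were 101 ± 25.2 FPKM in KO and 121 ± 25.1 FPKM in WT (SD, n = 3 each), a log2 fold change of -0.27 ± 0.19 SE with a 95% confidence interval of -0.69 to 0.15 (limma adjusted p = 0.387). Leaving out 1 library moved it to between -0.46 (without KO replicate 3, adjusted p = 0.0881) and -0.10 (without WT replicate 1, 0.789). The interval from all 6 libraries allows a fall to 0.621 of the WT value or a rise to 1.11 of it on the FPKM + 1 scale. At least 3473 to 5447 reads stood behind each value, so counting error was at most 1.70%, far under the spread of 25.1% between the KO libraries. In bulk samples fewer cells with a transcript and less of it per cell cannot be told apart, and the same holds for each gene below.

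Grb2, the adaptor that links phosphotyrosines to Sos1 (chromosome 11, 115644045 to 115708597, minus strand), was at 47.7, 50.6 and 55.6 FPKM in the KO libraries, against 55.5, 58.3 and 55.4 FPKM in the WT libraries. KO replicate 3 alone reached the WT values. The means of 51.3 ± 3.996 FPKM in KO and 56.4 ± 1.61 FPKM in WT gave a log2 fold change of -0.14 (95% interval -0.35 to 0.08, limma adjusted p = 0.393), and -0.09 without KO replicate 1. Shc1, the adaptor that carries Grb2 to the receptor (chromosome 3, 89418443 to 89430027, plus strand), showed the smallest difference of the 10 genes. It was at 25.8, 29.1 and 29.8 FPKM in KO, against 29.9, 27.2 and 25.2 FPKM in WT. The log2 fold change was 0.04 (95% interval -0.21 to 0.29, limma adjusted p = 0.853), and -0.02 without WT replicate 3.

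Gab2, the scaffold on which Ptpn11 and PI3-kinase assemble (chromosome 7, 97081586 to 97308946, plus strand), was at 1.90, 1.81 and 3.93 FPKM in the KO libraries, against 3.55, 3.44 and 2.94 FPKM in the WT libraries. The first 2 KO libraries lay under every WT library and the third lay above them all. The log2 fold change was -0.33 (95% interval -0.87 to 0.21, limma adjusted p = 0.411), and it ran from -0.59 without KO replicate 3 (adjusted p = 0.0672) to -0.21 without KO replicate 1 (0.683) and -0.19 without KO replicate 2 (0.699). Sos1, the exchange factor that loads Ras with GTP (chromosome 17, 80393751 to 80480453, minus strand), was the least abundant of the 10 genes, above 10.2% of all genes tested. It stood at 1.52, 0.892 and 1.90 FPKM in KO, against 2.17, 2.01 and 2.0998 FPKM in WT, and every KO library was under every WT library. The difference did not pass, with a log2 fold change of -0.37 (95% interval -0.86 to 0.13, limma adjusted p = 0.316), and -0.19 without KO replicate 2. As few as 55 to 121 reads stood behind each value, a counting error of up to 13.5%. The spread was 3.94% between the WT libraries and 35.4% between the KO libraries.

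Ptpn11, the SH2-domain phosphatase needed for full Ras activation by Kit (chromosome 5, 121130533 to 121191397, minus strand), was 1 of 2 members with a higher mean in KO. It was at 11.0, 13.0 and 11.1 FPKM in the KO libraries, against 8.42, 11.2 and 9.49 FPKM in the WT libraries. The groups overlapped through WT replicate 2. The log2 fold change was 0.25 (95% interval -0.08 to 0.57, limma adjusted p = 0.304), and 0.16 without WT replicate 1.

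Cbl, the ubiquitin ligase that ends Kit signalling by marking the receptor for breakdown (chromosome 9, 44142976 to 44234049, minus strand), was the one member that passed. It was at 2.34, 3.27 and 3.88 FPKM in replicates 1 to 3 labelled KO, against 14.3, 6.38 and 7.31 FPKM in WT replicates 1 to 3. The groups did not overlap, and WT replicate 1 stood well above the other WT libraries. Cbl fell to 3.17 ± 0.773 FPKM in KO, against 9.34 ± 4.35 FPKM in WT (SD, n = 3 each), which is 2.95-fold by the means. On the log2(FPKM + 1) scale the change was -1.25 ± 0.28 SE (95% interval -1.87 to -0.63, limma adjusted p = 0.0217).

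The call of Cbl did not hold in every processing of the data. It was lost without KO replicate 1 (adjusted p = 0.0719), without KO replicate 2 (0.0534), without WT replicate 1 (0.0533, with a log2 fold change of -0.93) and, just above the threshold, without WT replicate 3 (0.050004). It was also lost with no filter on low values (0.0841), once Y-linked transcripts entered the model (0.154) and with KO replicate 2 as the only KO library (0.162). The log2 fold change stayed between -1.50 and -0.93 over the 14 alternatives, whose adjusted p ran from 0.0112 to 0.162. The reads behind it were 86, 115 and 107 in KO, against 455, 190 and 232 in WT, so counting error was at most 10.8% while the spread between WT libraries was 46.6%. These read numbers are the lowest that the values allow and imply a gene length of 5083 bases, against 12345 exonic bases in GENCODE M21. Which part of the gene was counted is not known.

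**Figure D2:**
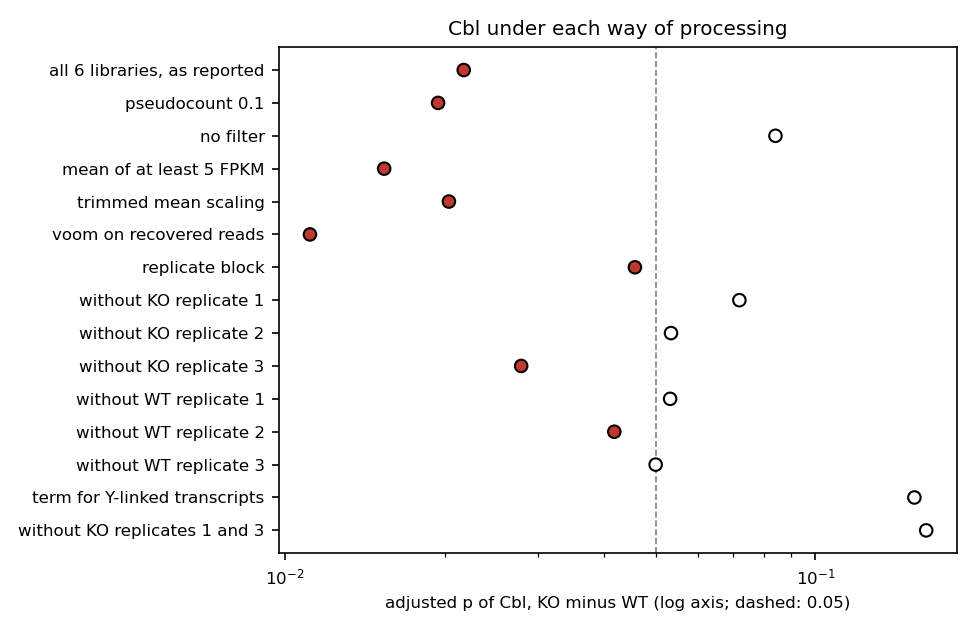
Adjusted p of Cbl (horizontal log axis) for the comparison of KO with WT in all 6 libraries and under each of 14 alternatives, with filled points under the dashed line at 0.05. The points run from 0.0112 with voom on recovered reads to 0.162 with a single KO library, and 7 of the alternatives lie at or above the line.

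Cblb, the closest relative of Cbl (chromosome 16, 52031225 to 52208048, plus strand), was at 1.97, 2.97 and 3.29 FPKM in the KO libraries, against 4.08, 3.94 and 3.14 FPKM in the WT libraries. Only KO replicate 3 lay above a WT library, replicate 3. The log2 fold change was -0.34 (95% interval -0.79 to 0.10, limma adjusted p = 0.3002), and -0.19 without KO replicate 1. The third gene of the family, Cblc, was listed at 0 in all 6 libraries.

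Ptpn6, the phosphatase that dampens Kit and cytokine receptors (chromosome 6, 124720707 to 124738714, minus strand), was the most abundant of the 10 genes, above 95.6% of all genes tested. It was at 143, 129 and 151 FPKM in the KO libraries, against 133, 158 and 151 FPKM in the WT libraries, and the ranges of the groups overlapped. Its log2 fold change of -0.06 had a 95% interval of -0.29 to 0.17 (limma adjusted p = 0.755), and the value without KO replicate 2 was 0.0026. Sh2b3, the adaptor that restrains Kit in stem cells (chromosome 5, 121815488 to 121837646, minus strand), was at 10.8, 13.4 and 15.5 FPKM in KO, against 17.7, 13.0 and 15.6 FPKM in WT. The groups overlapped and the log2 fold change was -0.21 (95% interval -0.57 to 0.15, limma adjusted p = 0.435), with -0.08 without KO replicate 1 and -0.11 without WT replicate 1. Strand is not kept by the library kit. Reads in the 195 exonic bases that Ptpn6 shares with the antisense gene Gm20531, and in the 99 that Sh2b3 shares with Atxn2, cannot be told apart.

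**Figure D3:**
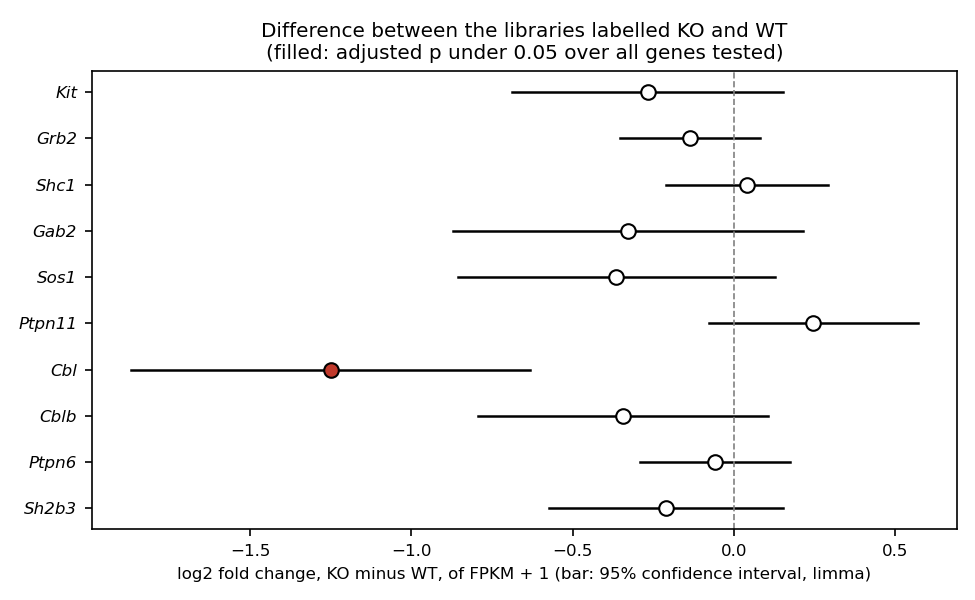
Log2 fold change of FPKM + 1, KO minus WT (horizontal axis), of each gene with its 95% confidence interval from limma; the filled point passed at an adjusted p under 0.05 over all genes tested. The interval of Cbl, -1.87 to -0.63, is the one that does not cross 0, and the intervals of Gab2 and Sos1 are the widest among the other genes.

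A ratio of 2 genes within a library does not depend on how libraries were scaled. The ratio of Cbl to Cblb in FPKM was 1.189, 1.1004 and 1.178 in the libraries labelled KO, against 3.52, 1.62 and 2.33 in those labelled WT. The 2 ligases were thus within 1.189-fold of each other per length in every KO library, and Cbl was further above Cblb in every WT library. Such a level of 1 gene against another rests on the lengths behind the FPKM values, which for Cbl and Cblb did not match GENCODE M21. The difference in the ratio between libraries does not rest on them. The mean log2 ratio differed by -1.03 (KO minus WT), with p = 0.1 in a two-sided exact permutation test over the 6 libraries (0.1 after adjustment over 2 ratios), the smallest value that 3 against 3 allows. The ratio of Ptpn11 to Ptpn6 was 0.0765, 0.1004 and 0.0733 in KO, against 0.0634, 0.0711 and 0.0630 in WT. These values did not overlap either, with a difference of 0.33 on the log2 scale and the same exact p = 0.1. The gap was narrow, between 0.0733 in KO replicate 3 and 0.0711 in WT replicate 2. It was smaller than the counting error of Ptpn11, up to 4.71% in those libraries. The part of all gene pairs whose ratios would not overlap was not computed for either ratio. Set against the receptor, Cbl was at 2.84, 3.64 and 3.00% of Kit in the libraries labelled KO, against 9.58, 5.94 and 6.96% in those labelled WT. For the other 8 genes the share of Kit overlapped between the groups. This share was not computed for all genes tested, of which 32.8% did not overlap in plain FPKM. Cbl as a percent of Kit was chosen after the values were seen and was not tested.

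**Figure D4:**
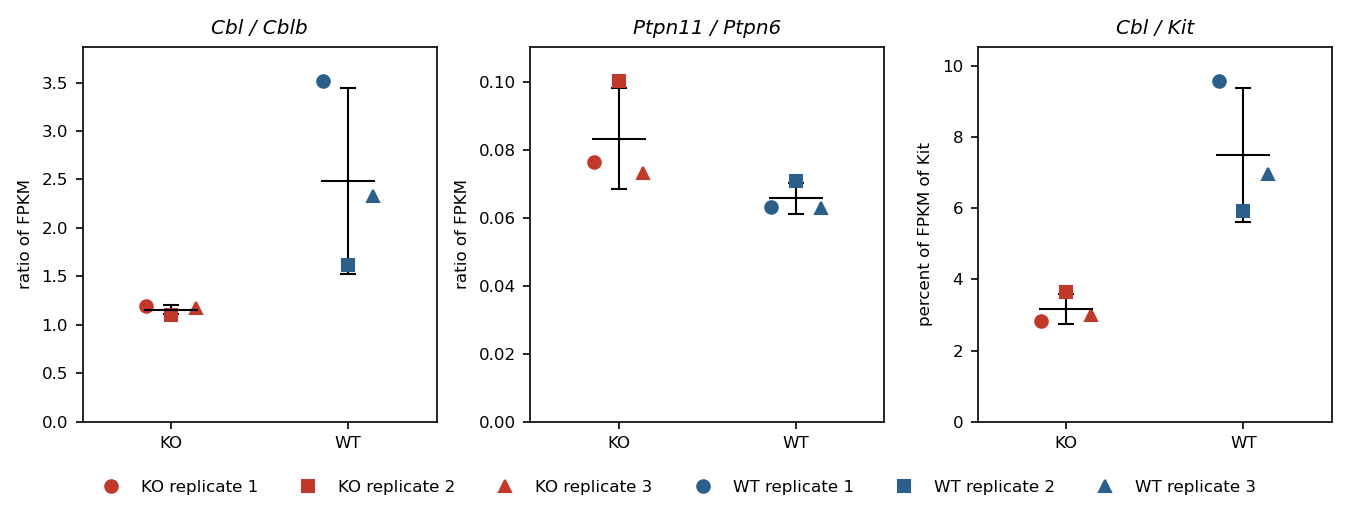
FPKM of Cbl over Cblb, of Ptpn11 over Ptpn6 and of Cbl as a percent of Kit (vertical axes, from 0) in each library labelled KO (red) and WT (blue), with mean and SD in black. Cbl over Cblb lies between 1.1004 and 1.189 in KO and between 1.62 and 3.52 in WT.

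By mean FPKM over the 6 libraries the order of levels was Ptpn6, Kit, Grb2, Shc1, Sh2b3, Ptpn11, Cbl, Cblb, Gab2 and Sos1. This order rests on the lengths behind the FPKM values, which matched GENCODE M21 exactly only for Grb2, Ptpn6 and Ptpn11. Kit, Grb2, Shc1 and Sh2b3 were separated from one another in all 6 libraries with ranges that did not meet. The ranges of Ptpn6 and Kit met, as WT replicate 1 had more Kit than Ptpn6. From Sh2b3 downwards every neighbour's range met the next, although Cbl was above Cblb and Gab2 above Sos1 in all 6 libraries. The brake Ptpn6, with a mean of 144 FPKM, was thus at a similar level per length to the receptor, and the exchange factor Sos1, at 1.77 FPKM, was far below the adaptor Grb2, at 53.9 FPKM, that binds it.

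Libraries of 1 group also differed in most members at once. In the library labelled KO replicate 3, which was the shallowest, 9 of the 10 were at their highest among the KO libraries, the exception being Ptpn11. Of all genes tested, 36.3% were highest there. KO replicate 1 had the lowest value for 7 of them, against 31.6% of all genes. Among the WT libraries, replicate 1 held the highest value of 7, against 37.7% of all genes. For Kit, Grb2, Shc1, Gab2, Cblb, Ptpn6 and Sh2b3 the group means differed by less than KO replicates 1 and 3 did.

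The wider pathway was read from 5 lists, beside all genes tested, of which 5.48% passed higher and 5.43% lower in KO, 50.3% were below 0 and the median log2 fold change was -0.002. Of the class III receptors and their ligands, 4 of 8 were tested and 2 passed, both lower, against 5.43% of all genes. Flt3, the receptor of multipotent progenitors, fell to 34.9 ± 3.45 FPKM in KO, against 82.7 ± 9.76 FPKM in WT (limma adjusted p = 0.000567). The platelet-derived growth factor receptor gene Pdgfrb fell to 5.07 ± 1.02 FPKM in KO, against 12.9 ± 3.93 FPKM in WT (limma adjusted p = 0.0126, and 0.0650 without WT replicate 2). Csf1r, the receptor of macrophage colony-stimulating factor, was at 4.30 FPKM in KO and 4.27 FPKM in WT. Kitl, which encodes stem cell factor and is made by niche cells, had 7, 2 and 0 reads in the libraries labelled KO, against 2, 4 and 4 in those labelled WT, and was not tested.

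Of 28 other adaptors, 21 were tested, 3 rose, against 5.48% of all genes, and 1 fell, against 5.43%, with a median log2 fold change of -0.02. The docking protein Dok2, which recruits Ras GTPase-activating protein, rose to 57.7 ± 6.58 FPKM in KO, against 36.9 ± 0.314 FPKM in WT (limma adjusted p = 0.00785). Its relative Dok3 was at 10.1 ± 2.18 FPKM in KO and 5.44 ± 1.34 FPKM in WT (adjusted p = 0.0429), and the insulin receptor substrate Irs2 at 31.3 ± 1.33 FPKM in KO and 23.7 ± 2.186 FPKM in WT (0.0477). Vav3, a guanine nucleotide exchange factor, fell to 9.22 ± 1.76 FPKM in KO, against 15.4 ± 0.748 FPKM in WT (0.0188). Irs2 lost its call without any 1 of the 6 libraries (0.0669 to 0.168), Dok3 without any but KO replicate 2 (0.0323 to 0.136) and Vav3 without any but KO replicate 3 (0.00723 to 0.0775). Sos2, the relative of Sos1, was at 1.87, 1.80 and 3.18 FPKM in the KO libraries, against 3.12, 3.57 and 2.65 FPKM in the WT libraries (limma adjusted p = 0.336).

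Among 27 other brakes, 24 were tested and 2 rose, against 5.48% of all genes, with a median of -0.08. Sla2, an adaptor that works with Cbl to lower antigen receptors on lymphocytes, rose to 52.5 ± 4.002 FPKM in KO, against 30.8 ± 3.54 FPKM in WT (limma adjusted p = 0.00485). Cish, a STAT5-induced member of the SOCS family, was at 14.1 ± 4.78 FPKM in KO and 7.13 ± 1.04 FPKM in WT (adjusted p = 0.0419), and it lost its call without any library but KO replicate 2 (0.0132 to 0.131). Of 17 genes of PI3-kinase, PLC-gamma and AKT, 15 were tested and 1 fell, against 5.43% of all genes. The median was -0.25 and 13 values were below 0, against 50.3% of all genes. The gene that fell was Plcg1, the phospholipase, at 4.95 ± 1.24 FPKM in KO and 8.37 ± 0.723 FPKM in WT (limma adjusted p = 0.0409), and it lost its call without any library but KO replicate 3 (0.0149 to 0.142).

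Of 14 transcription factors known to act on the Kit gene, 13 were tested and 3 rose, against 5.48% of all genes, with a median of 0.04. The erythroid and mast cell factor Gata1 rose to 34.4 ± 12.9 FPKM in KO, against 12.9 ± 1.202 FPKM in WT (limma adjusted p = 0.00841). Gata2, its counterpart in stem cells, was at 127 ± 10.1 FPKM in KO and 90.2 ± 6.26 FPKM in WT (adjusted p = 0.0168), but the call was lost without KO replicate 1, WT replicate 2 or WT replicate 3 (0.0187 to 0.0788 over the 6). Tal1, which forms complexes with Gata factors, was at 11.4 ± 0.422 FPKM in KO and 7.69 ± 0.223 FPKM in WT (adjusted p = 0.0290), and lost its call without any library but KO replicate 3 (0.0337 to 0.109). Of all these called genes in the 5 lists, Flt3 and Gata1 kept their calls under every alternative, with adjusted p of at most 0.0191 and 0.0453. Once Y-linked transcripts entered the model the others lost theirs, with Dok2 at an adjusted p of 0.0922.

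**Figure D5:**
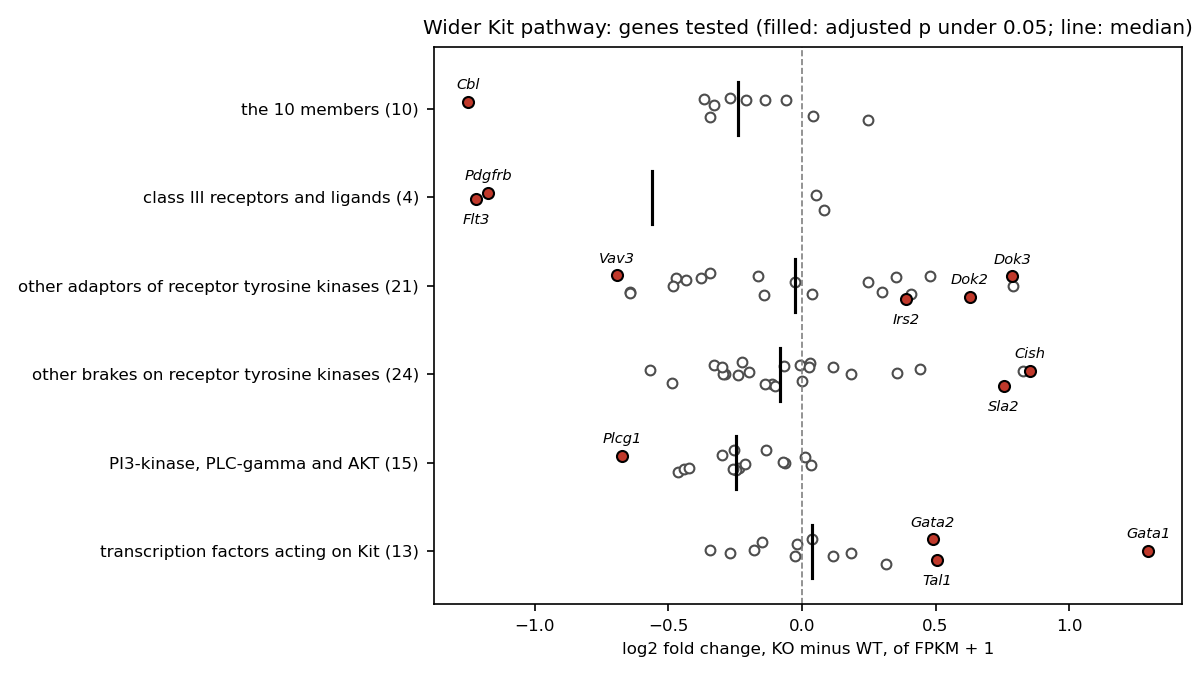
Log2 fold change of FPKM + 1, KO minus WT (horizontal axis), for each tested gene of the 10 members and of 5 wider lists (rows, with the number tested), filled and named where the adjusted p was under 0.05, with the median of each row as a line. The lowest named gene is Cbl at -1.25, close to Flt3 at -1.22, and the highest is Gata1 at 1.29, while Kit itself lies at -0.27.

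Among the genes whose levels followed Kit most closely over the 6 libraries were Urb2 (Pearson's r = 0.997 on the log2(FPKM + 1) scale), Ptar1 (0.991), the oestrogen receptor gene Esr1 (0.990) and Bpnt1 (0.990), out of 10073 genes ranked. Urb2, for example, was at 2.41, 3.01 and 5.39 FPKM in the KO libraries, against 6.77, 3.80 and 3.67 FPKM in the WT libraries. Its highest values fell in the same 2 libraries as those of Kit, KO replicate 3 and WT replicate 1. With 6 points, some of many genes come this close whatever their function. Of the other members, Sh2b3 (0.885) and Gab2 (0.870) followed Kit most closely and Ptpn11 ran opposite (-0.663).

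Markers of other cells were read beside these values. For mast cells and basophils, cells that carry much Kit, 10 genes were summed. They came to 68.2 to 137 FPKM in the KO libraries and 53.9 to 92.3 FPKM in the WT libraries. These sums overlapped, as WT replicate 2, at 92.3 FPKM, lay above KO replicates 2 and 3, at 68.2 and 90.4 FPKM. Single mast cell genes did not all follow the sums. Cma1 was at 3.77 to 12.2 FPKM in the KO libraries, against 0 to 0.447 FPKM in the WT libraries. Tpsb2 was at 3.46 to 13.98 FPKM in KO, against 0 in all 3 WT libraries. Tpsab1 was at 0 to 3.61 FPKM in KO, against 0 in WT, so its values met at 0. The 7 of 8 listed erythroid genes in the table summed to 713 to 1314 FPKM in KO and 356 to 653 FPKM in WT. The 8 T and NK cell genes summed to 191 to 296 FPKM in KO and 355 to 419 FPKM in WT. Of these 8 genes, 5 were under 1 FPKM in every library, among them Cd3g and Ncr1 at 0 in all 6. The sum of 10 of 11 listed B and plasma cell genes was 168 to 3618 FPKM in KO and 350 to 372 FPKM in WT. Without Igkc and Ighm it was 102, 58.3 and 90.5 FPKM in KO replicates 1 to 3, against 47.7 to 61.1 FPKM in WT. Igj, a gene of this list, was at 39.8, 0.239 and 33.8 FPKM in KO replicates 1 to 3, against 0 to 0.530 FPKM in WT. The sum of 8 neutrophil genes was 29.0 to 161 FPKM in KO and 118 to 238 FPKM in WT. Of 9 macrophage and dendritic cell genes, 8 were in the table and summed to 18.0 to 34.4 FPKM in KO and 27.4 to 31.9 FPKM in WT, and 8 endothelial and stromal genes summed to 20.9 to 24.4 FPKM in KO and 25.01 to 35.5 FPKM in WT. The erythroid, T and NK, and endothelial and stromal sums did not overlap between the groups. Of single genes tested, 32.8% did not overlap in either direction. Among the 8 endothelial and stromal genes, 2 were under 1 FPKM in every library. The part of any of these cells in the values of the 10 genes was not tested.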

How the data were processed

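Per the labels' protocols, cDNA was amplified with SMART-Seq v4 and made into libraries with Nextera XT. The authors deposited FPKM values, 1 column per library. The submitters' processing notes list build mm10, TopHat2 2.1.1, DESeq2 1.18.1, HTSeq 0.6.1 and bcl2fastq 2.19.1.403 with no role or order, and no annotation is named. Values were tested on log2(FPKM + 1) in limma 3.58.1 (R 4.3.3; lmFit, then eBayes with a trend) wherever the 6-library mean reached 1 FPKM, two-sided, called at an adjusted p under 0.05. This scale understates changes of low genes. The test was also run on simulated reads drawn from the means, depths and spread of these libraries.

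Ratios between libraries were whole numbers for 17182 of the 17183 genes detected in several libraries (99.99%, to a relative tolerance of 1e-11), which gave the reads. Where the implied length divided the exon length in GENCODE M21 (Grb2, Ptpn6 and Ptpn11 among the members), reads were scaled to it. Otherwise they are lower bounds. With voom on these reads 1570 genes passed. Read-based errors cover counting error only.

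Coordinates come from GENCODE M21. Members and lists were chosen with earlier results of these data known. Genes named are the 10 members, called members of the 5 lists, Kitl, Sos2, Cblc and the 5 closest to Kit (predicted models and pseudogenes left out), of which 1 is not reported here. Ratios were tested with scipy 1.17.1. Other genes named were chosen after their values were seen.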

Additional observations from a re-analysis of the deposited data

How the results depend on the processing

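The directions of Kit, Grb2, Sos1, Gab2, Cbl, Cblb, Ptpn11 and Sh2b3 were kept under every alternative in which each was tested (another pseudocount, other filters, trimmed mean scaling, voom on recovered reads, a replicate block, leaving out libraries, Y-linked transcripts in the model), and none of the 9 genes other than Cbl passed in any. The mean of at least 5 FPKM left Sos1, Gab2 and Cblb untested. Near 0, Shc1 ran from -0.0173 (without WT replicate 3) to 0.1012 and Ptpn6 from -0.1308 to 0.0026 (without KO replicate 2) when 1 library was left out. In limma 1240 genes passed in all 6 libraries, of which 1 was a member. With no filter 588 genes passed, and 0 members, 1 class III receptor or ligand, 1 other adaptor, 1 other brake and 0 PI3-kinase and PLC-gamma genes (1 member, 3, 11, 7 and 2 at an unadjusted p under 0.05). The groups share replicate numbers, but same-numbered libraries did not deviate together (r = -0.03, 0.05 and -0.12 over 11371 genes). With the replicate block 805 genes, 2 adaptors, 1 brake and 0 PI3-kinase and PLC-gamma genes passed (2 of the last at an unadjusted p under 0.05), and 1 member still did. With Y-linked transcripts in the model, which rests the comparison on KO replicate 2, 373 genes passed, and 0 members, 1 class III gene, 0 adaptors, 0 brakes and 1 transcription factor (2, 2, 7, 6 and 5 unadjusted). Without KO replicates 1 and 3, where the lone KO library is assumed to vary like the WT group, 514 genes passed, and 0 members (3 unadjusted), 1 class III gene, 1 brake, 2 PI3-kinase and PLC-gamma genes and 1 transcription factor. Of the PI3-kinase and PLC-gamma genes 2 passed with a mean of at least 5 FPKM and 2 with voom, which also called 4 brakes. Leaving out 1 library at a time, 370 to 1598 genes passed (370 without WT replicate 2, 509 without WT replicate 3, 531 without WT replicate 1 and 824 without KO replicate 1), 0 to 1 members (1 to 4 unadjusted), 1 to 2 class III genes, 1 to 3 adaptors, 1 to 2 brakes, 0 to 4 PI3-kinase and PLC-gamma genes (2 to 8 unadjusted) and 1 to 3 transcription factors. The cause of these shifts was not tested. The log2 difference in the Cbl to Cblb ratio ran from -1.31 to -0.75 and that in Ptpn11 to Ptpn6 from 0.19 to 0.42 without 1 library; as same-numbered differences (replicate block) they were again -1.03 and 0.33, with an exact p = 0.25, the smallest that 3 pairs allow. Counting error was larger for Sos1, Gab2 and Cblb, with at least 55 to 161 reads per library, than for Kit or Ptpn6. Cbl was in the same range in the KO libraries, with at least 86 to 115 reads.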
